A study of Mus musculus with 21 samples.

Results

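The synaptonemal complex genes measured here were Sycp1, Sycp2, Sycp3, Syce1, Syce2, Tex11 and Tex12. They were chosen by name, with earlier results of these data known. Each of the 7 had 1 row among the 37620 genes of the deposited RNA-seq table. RNA-seq was performed on germ cells enriched by collagenase and trypsin digestion from testes of C57BL/6J (B6) males at 12 days post-partum (dpp). There were 12 libraries, 3 for each of 186wt, 343wt, 444wt and 456wt, which are called sample numbers here and are the 4 replicates of the study. All animals were of the same strain and age, and the labels give no treatment or mutant allele, so the only comparison the data allow is between the sample numbers. The labels do not say whether a number is 1 mouse or a pool of mice, nor whether its 3 libraries came from separate preparations. The p-values therefore compare these 4 numbers against the spread between libraries of a number, which may be technical. The 9 chromatin and PRDM9-binding samples of the series were not used.

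The synaptonemal complex is the protein zipper that joins homologous chromosomes along their length during meiotic prophase. SYCP2 and SYCP3 form the lateral elements on the chromosome axes, SYCP1 forms the transverse filaments that span the gap between them, and SYCE1, SYCE2 and TEX12 belong to the central element where the filaments from both sides meet. TEX11 is an X-linked recombination protein that is found as foci on the complex and is needed for normal crossing over. The first wave of spermatogenesis in a young male is synchronous enough that at this age most spermatocytes are in the early stages of prophase, when the complex is being assembled.

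All 7 genes were protein-coding and lay on separate chromosomes of NCBI build 37. Sycp1 (ENSMUSG00000027855) is at chr3:102622422-102740023 on the minus strand and its longest transcript has 33 exons. Sycp2 (ENSMUSG00000060445) is at chr2:178079998-178142390 on the minus strand, with up to 44 exons. Sycp3 (ENSMUSG00000020059) is at chr10:87922314-87935981 on the plus strand. Syce1 (ENSMUSG00000025480) is at chr7:147963128-147973753 on the minus strand, Syce2 (ENSMUSG00000003824) at chr8:87396010-87412120 on the plus strand and Tex12 (ENSMUSG00000032065) at chr9:50365253-50369373 on the minus strand. Tex11 (ENSMUSG00000009670) is at chrX:98033987-98255006 on the minus strand. At 221020 bp Tex11 was the longest of the 7 genes, and Tex12 was the shortest at 4121 bp. Of the exon bases of Sycp3, 660 of 1264 are shared with Chpt1 on the opposite strand, a gene at 31.1 ± 1.99 FPKM (SD, n = 4). Whether the reads were counted by strand is not given in the sources used here, so part of the Sycp3 value may come from Chpt1. None of the exon bases of Syce2 and Tex11 are shared with the genes that overlap them.

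The RefSeq promoter table (GRCm38.p6) held 7 promoters of 6 of these genes, and each was found exactly once in NCBI build 37. They are shown as sequence only and were not tested against the differences between sample numbers. Capitals mark the motifs found in them. The promoter of Sycp2 and that of the outer start of Syce2 held none of the motifs searched and are not printed. The E-box CACGTG, a palindrome, is the site of MAX and its partners, and TTCCCGC is the core of the E2F site, which reads GCGGGAA when the other strand is written. Both kinds of site are known from germline genes that are kept silent in somatic cells. In Sycp1 (chr3:102740024-102740273, minus strand), Tex12 (chr9:50369374-50369623, minus strand) and Syce1 (chr7:147973754-147974003, minus strand) the 250 bases before the start are given 5′ to 3′. In Sycp3 (chr10:87922082-87922313, plus strand) the stretch ends at the gene's annotated start, 18 bases before the RefSeq start. For Syce2 (chr8:87396107-87396136, plus strand) a window of 30 bases is given that ends short of its inner start at 87396157. This window lies inside the annotated gene and leaves out the E-box that begins 88 bases before that start.
Sycp1: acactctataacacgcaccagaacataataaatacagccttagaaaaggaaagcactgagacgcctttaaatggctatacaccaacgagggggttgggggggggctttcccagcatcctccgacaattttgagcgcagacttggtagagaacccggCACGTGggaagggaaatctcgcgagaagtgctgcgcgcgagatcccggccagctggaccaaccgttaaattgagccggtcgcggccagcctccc
Sycp3: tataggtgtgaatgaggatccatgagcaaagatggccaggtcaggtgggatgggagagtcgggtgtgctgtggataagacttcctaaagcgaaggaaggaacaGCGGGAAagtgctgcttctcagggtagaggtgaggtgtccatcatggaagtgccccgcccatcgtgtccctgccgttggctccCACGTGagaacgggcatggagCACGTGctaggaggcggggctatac
Tex12: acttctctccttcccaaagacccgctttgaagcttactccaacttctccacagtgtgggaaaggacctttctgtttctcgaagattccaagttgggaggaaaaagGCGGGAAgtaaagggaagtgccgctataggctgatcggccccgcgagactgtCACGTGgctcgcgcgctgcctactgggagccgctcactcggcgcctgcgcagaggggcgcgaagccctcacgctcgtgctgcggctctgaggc
Syce2: cgcagagggcgCTGAGGCGGGAAaagacgg
Syce1: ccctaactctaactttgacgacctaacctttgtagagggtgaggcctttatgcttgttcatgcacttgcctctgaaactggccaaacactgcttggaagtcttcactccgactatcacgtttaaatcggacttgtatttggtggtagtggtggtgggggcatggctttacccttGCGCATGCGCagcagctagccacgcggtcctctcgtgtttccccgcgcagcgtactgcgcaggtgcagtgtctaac
The capitals mark the E-box in Sycp1, an E2F core followed by 2 E-boxes in Sycp3, and an E2F core followed by an E-box in Tex12. In Syce2 they mark CTGAGGCG, a match to the STRA8 motif CNCCTCAG on the other strand, which overlaps the E2F core GCGGGAA. In Syce1 they mark the NRF1 motif GCATGCGC, which matches on both strands at overlapping positions.

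Within 250 bases of a start, the E-box letters were found in 4 of the 6 genes (Sycp1, Sycp3, Syce2 and Tex12). By promoter this was 4 of 7, compared with 6.02% of 32851 promoters of all genes. They began 94 bases before the start of Sycp1, 93 before that of Tex12, 88 before the inner start of Syce2, and 64 and 43 before that of Sycp3. The E2F core was found in 3 genes (Sycp3, Syce2 and Tex12), or 3 of 7 promoters, compared with 3.82% of all promoters. Among the 15211 promoters with at least 7 CpG, the lowest number in a member, the shares were 9.09% for the E-box and 7.36% for the E2F core. The STRA8 motif, named for the factor that starts meiosis, was in Syce2 only in this window (6.42% of all promoters) and in 3 genes when 300 bases were searched (7.94%), and the NRF1 motif in Syce1 only (2.26%). No member held the cyclic AMP response element TGACGTCA (1.55% of all promoters) or the letters TATAAA (12.4%) in this window, both strands searched. The 7 promoters had 53.2% to 67.2% GC and 7 to 24 CpG, compared with medians of 52.4% and 6 over all promoters. These matches are descriptions of sequence and show no binding.

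Levels are given as FPKM (fragments per kilobase of transcript, divided by the mapped fragments of the library in units of M, mega), so they are scaled to transcript length and can be set against each other between genes. Each value for a sample number is the mean of its 3 libraries. The estimated depth was 13.1 to 18.2 M fragments per library. For Tex12, the member with the lowest level and the shortest transcript, this came to 141 to 236 fragments in a library, and for Syce1 to 572 to 932.

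Of the lateral element genes, Sycp3 was at 70.8 FPKM in 186wt, 57.9 in 343wt, 99.0 in 444wt and 64.7 in 456wt, a mean of 73.1 ± 18.1 FPKM (SD, n = 4). Sycp2 was at 39.6, 23.04, 45.3 and 27.7 FPKM in the same order, with a mean of 33.9 ± 10.3 FPKM. Both were highest in 444wt and lowest in 343wt, and Sycp2 in 186wt stood nearer to 444wt than to the others. The ratio of Sycp2 to Sycp3, partners in the same structure, ranged from 0.398 in 343wt to 0.559 in 186wt. The transverse filament gene Sycp1 was at 49.9 FPKM in 186wt, 43.9 in 343wt, 67.1 in 444wt and 47.1 in 456wt, with a mean of 52.0 ± 10.4 FPKM. It was again highest in 444wt and lowest in 343wt.

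Among the central element genes, Syce2 was at 65.6 FPKM in 186wt, 63.0 in 343wt, 100.9 in 444wt and 82.2 in 456wt, with a mean of 77.9 ± 17.5 FPKM (SD, n = 4), the highest of the 7 genes. Syce1 was at 32.6, 27.5, 43.4 and 36.3 FPKM (mean 35.0 ± 6.71). For both, 444wt was highest, 456wt next and 343wt lowest. Tex12, whose protein pairs with SYCE2, was at 20.3, 20.2, 27.9 and 21.6 FPKM (mean 22.5 ± 3.68), the lowest of the 7 genes in every sample number. Tex12 stood above its other levels in 444wt alone, and the libraries of 186wt, 343wt and 456wt overlapped. Syce2 exceeded Tex12 by 3.12-fold in 343wt to 3.81-fold in 456wt.

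Tex11 was at 36.8 FPKM in 186wt, 38.1 in 343wt, 52.4 in 444wt and 51.2 in 456wt, with a mean of 44.6 ± 8.31 FPKM (SD, n = 4). The libraries of 186wt and 343wt were all below those of 444wt and 456wt, which also held for Syce1 and Syce2. In Tex11 the libraries of 444wt and 456wt overlapped, which held for no other member. Of the 981 expressed genes on the X chromosome, 84 were above Tex11. The median level was 3.94 FPKM for expressed genes of the X and 5.16 FPKM for those of the autosomes.

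**Figure D1:**
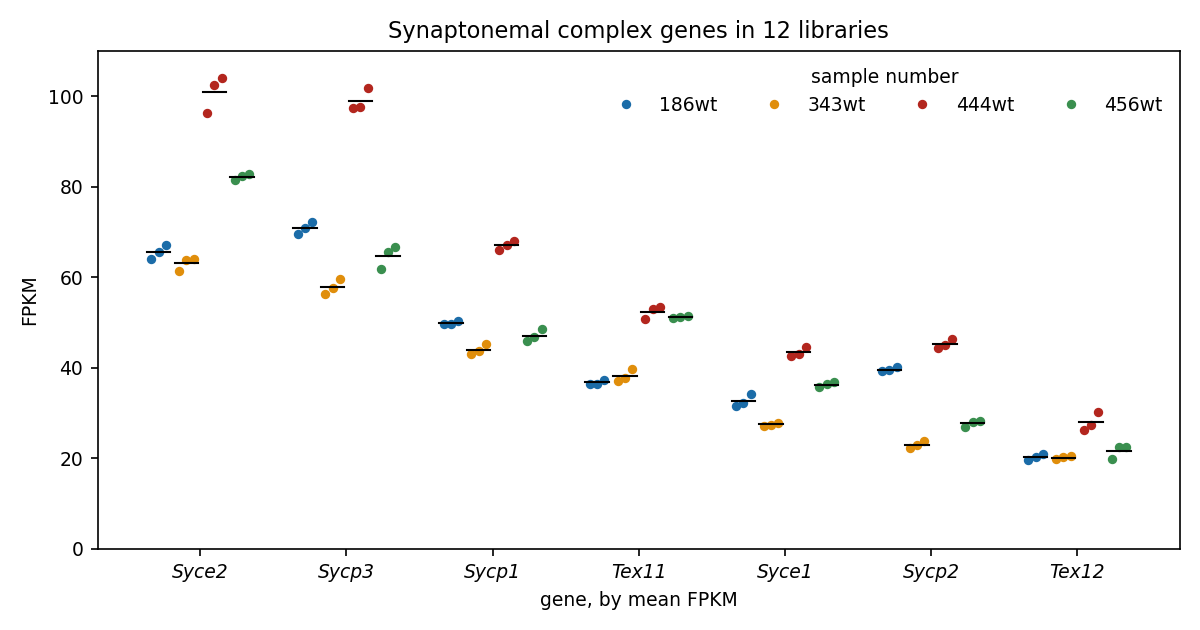
FPKM of the 7 genes (vertical axis, linear) in each of 12 libraries (points, 3 per sample number, drawn in ascending order), with the mean of each sample number as a bar; genes run from the highest to the lowest mean. The red points of 444wt lie above all other libraries for every gene except Tex11, where those of 456wt reach 51.4 FPKM and the lowest of 444wt is at 50.7.

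By mean FPKM the order was Syce2, Sycp3, Sycp1, Tex11, Syce1, Sycp2 and Tex12. No neighbours in this order were apart beyond their ranges over the 4 sample numbers. Within a sample number the order was steadier for some neighbours than for others. Sycp3 was above Sycp1, Tex11 above Syce1 and Sycp2 above Tex12 in 4 of 4 numbers. Syce2 was above Sycp3 in 3 numbers and below it in 186wt, Sycp1 was above Tex11 in 3 numbers, and Syce1 was above Sycp2 in 2. The ratio that varied least was that of Sycp1 to Sycp3, at 0.678 to 0.759, a 1.12-fold range. That of Sycp2 to Tex11 varied most, over a 1.99-fold range. All 7 genes were in the top quartile of expressed genes (25.0% by construction), which began at 21.1 FPKM, and their means exceeded those of 76.4% (Tex12) to 95.1% (Syce2) of expressed genes. Tex12 was closest to this bound, and in 186wt and 343wt its value was below it.

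Libraries of the same sample number differed little, and for Syce1 and Tex12 by no more than counting noise. The counting error of a library, estimated from the depth, was 3.67% for Syce1 and 7.27% for Tex12, above their coefficients of variation within a number of 2.44% and 4.73%. The 3 libraries of a number were therefore counted as 1 sample in each mean ± SD, and the tests between numbers compare 4 particular samples against an error of that size. The coefficient of variation within a number was 1.94% (Sycp1) to 4.73% (Tex12), whereas between the 4 numbers it was 16.4% (Tex12) to 30.3% (Sycp2). The difference between numbers was tested by limma for the 20795 genes whose mean reached 0.1 FPKM on log2(FPKM + 0.1), with Benjamini-Hochberg adjustment over all of them. By the F-test over the 4 numbers 7 of 7 members differed, with adjusted p-values from limma of 9.39e-10 (Sycp2) to 7.76e-05 (Tex12). The same test called 58.2% of all genes, so a call was common among genes at large. Without 444wt the F-test called 6 members, and Tex12 had an adjusted p of 0.264 from limma. Between the highest and the lowest number Sycp2 spanned 0.97 on the log2 scale, more than 77.5% of genes tested, Sycp3 spanned 0.77, and Tex12 spanned 0.47, more than 42.3% of genes. The median over all genes was 0.55.

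For 6 of 7 members all 3 libraries of 444wt were above all 9 others, the exception being Tex11, whereas 11.5% of all genes tested had that pattern. Compared with 343wt, 444wt was higher in 7 of 7 members by limma (30.4% of all genes). The log2 differences were 0.97 ± 0.03 (SE) for Sycp2, 0.77 ± 0.03 for Sycp3, 0.68 ± 0.03 for Syce2, 0.66 ± 0.03 for Syce1, 0.61 ± 0.03 for Sycp1, 0.47 ± 0.06 for Tex12 and 0.46 ± 0.03 for Tex11. Their median was 0.66, beside 0.14 over all genes tested. Compared with 186wt, 444wt was also higher in 7 of 7 (26.1% of all genes), from 0.19 for Sycp2 to 0.62 for Syce2. Compared with 456wt it was higher in 6 of 7 (13.1% of all genes), and Tex11 differed by 0.03 with an adjusted p of 0.468 from limma. These comparisons share the libraries of 444wt.

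The other pairs separated the members from each other. Between 456wt and 186wt, Tex11 was higher in 456wt by 0.48, Syce2 by 0.33 and Syce1 by 0.15 on the log2 scale (3 of 7 members, 25.9% of all genes). Sycp2 fell by 0.51, Sycp3 fell by 0.13 and Sycp1 fell by 0.08, with an adjusted p for Sycp1 of 0.0294 from limma (3 of 7 members lower, 15.5% of all genes). The Sycp1 call was lost in 6 alternatives (without a variance trend, without any 1 library of 186wt, and without library 1 or 2 of 456wt), with adjusted p-values from limma of 0.0539 to 0.112. Tex12 differed by 0.08 with an adjusted p of 0.282 from limma. Both lateral element genes were thus lower in 456wt, as was Sycp1 with less certainty, and 2 of 3 central element genes and Tex11 were higher. This split depended on the scaling. When libraries were scaled to germ cell genes, as described below, Syce1 and Tex12 were called lower too and only Tex11 was called higher. 186wt was above 343wt in 4 of 7 members (10.5% of all genes), with 0.78 for Sycp2, 0.29 for Sycp3, 0.25 for Syce1 and 0.18 for Sycp1. 456wt was above 343wt in 6 of 7 (27.6% of all genes), where Tex12 differed by 0.09 with an adjusted p of 0.228 from limma. With median-ratio scaling this count was 4, and Sycp1 and Sycp3 had adjusted p-values of 0.546 and 0.0668 from limma.

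**Figure D2:**
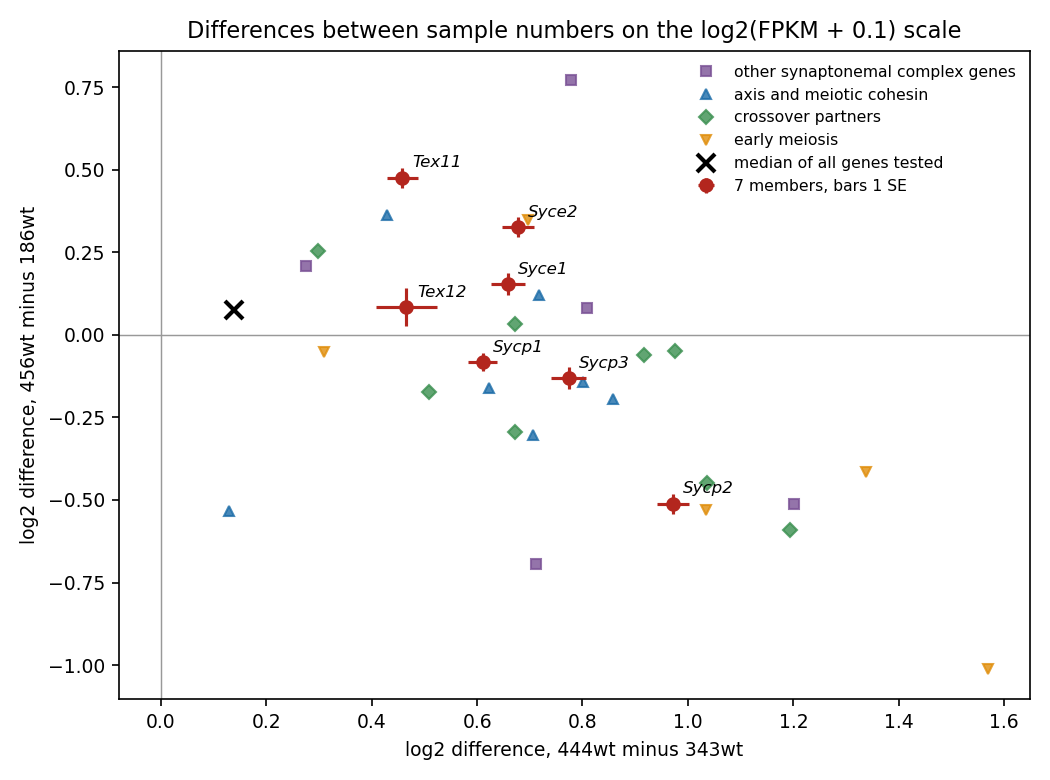
Log2 difference of 444wt minus 343wt (horizontal axis) against that of 456wt minus 186wt (vertical axis) for the 7 members (circles with bars of 1 SE from limma), 25 listed meiotic genes (other symbols) and the median of all genes tested (cross). All members lie right of 0, from 0.46 (Tex11) to 0.97 (Sycp2), while on the vertical axis they run from -0.51 (Sycp2) to 0.48 (Tex11).

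The libraries hold RNA of other testis cells, and its amount moved with the sample numbers. The 8 Sertoli cell markers, of which 0 were highest in 444wt, summed to 4308 FPKM in 186wt and 4432 in 343wt, compared with 2480 in 444wt and 2658 in 456wt, and Sox9 and Amh, which define that cell type, were at 44.4 ± 11.7 and 70.1 ± 21.6 FPKM (SD, n = 4). The 6 Leydig cell markers summed to 16.1 FPKM in 444wt and to 56.5 to 110.5 in the others, 4 peritubular myoid markers to 247.2 FPKM in 343wt and to 527.3 to 1099 in the others, 4 macrophage markers to 3.41 FPKM in 444wt and 5.07 to 12.1 in the others, and 4 endothelial markers to 12.3 FPKM in 444wt and 14.8 to 31.0 in the others. The 7 spermatogonial markers, of which 6 were highest in 444wt, summed to 480.5 FPKM in 186wt, 500.2 in 343wt, 684.6 in 444wt and 614.5 in 456wt. A sum mostly follows the highest gene of its list. In 186wt Clu was at 2289 FPKM among the Sertoli markers, Acta2 at 393.8 among the myoid and Uchl1 at 324.6 among the spermatogonial. Of the later stages, 6 markers of pachytene or later spermatocytes summed to 71.2 FPKM in 186wt, 55.3 in 343wt, 54.6 in 444wt and 87.1 in 456wt. Among them the sperm lactate dehydrogenase gene Ldhc was at 1.84 FPKM in 444wt and at 5.96 to 13.5 in the others. Clgn and Piwil1 were also lowest in 444wt, at 11.6 and 4.22 FPKM. Hspa2 and Ccna1 were lowest in 343wt, at 27.1 and 0.41 FPKM, compared with 36.2 and 0.70 in 444wt. Pgk2 was near 0, with a mean of 0.09 FPKM. The 6 markers of round spermatids summed to 2.38 to 4.30, with Prm2 at 0 in all libraries. Genes that germ cells at large express (Ddx4, Dazl, Tdrd1, Mael and Piwil2) had geometric means of 70.6 FPKM in 186wt, 71.8 in 343wt, 105.3 in 444wt and 91.4 in 456wt, and 5 of 5 were highest in 444wt. How many of all genes were highest in 444wt was not counted, so these counts have no share beside them. With each gene's log2 level centred on its mean, the median of expressed genes was also highest in 444wt. It was 0.06 there, beside 0.36 for the median of these germ cell genes. The part of cell makeup in the differences between numbers was not tested, and in bulk libraries more cells of a type cannot be told apart from more RNA per cell.

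Set against these 5 germ cell genes, the members kept different amounts of their variation. Syce2 was at 0.878 to 0.958 of their geometric mean in the 4 numbers, a 1.09-fold range, and Tex11 at 0.497 to 0.560, a 1.13-fold range. Syce1 and Tex12 ranged 1.21-fold and 1.22-fold, Sycp1 1.37-fold and Sycp3 1.42-fold. The ratio of Sycp2 was 0.560 in 186wt, 0.321 in 343wt, 0.430 in 444wt and 0.303 in 456wt, a 1.85-fold range. For 5 of the members (Sycp1, Sycp2, Sycp3, Syce1 and Tex12) the ratio was highest in 186wt, not 444wt.

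**Figure D3:**
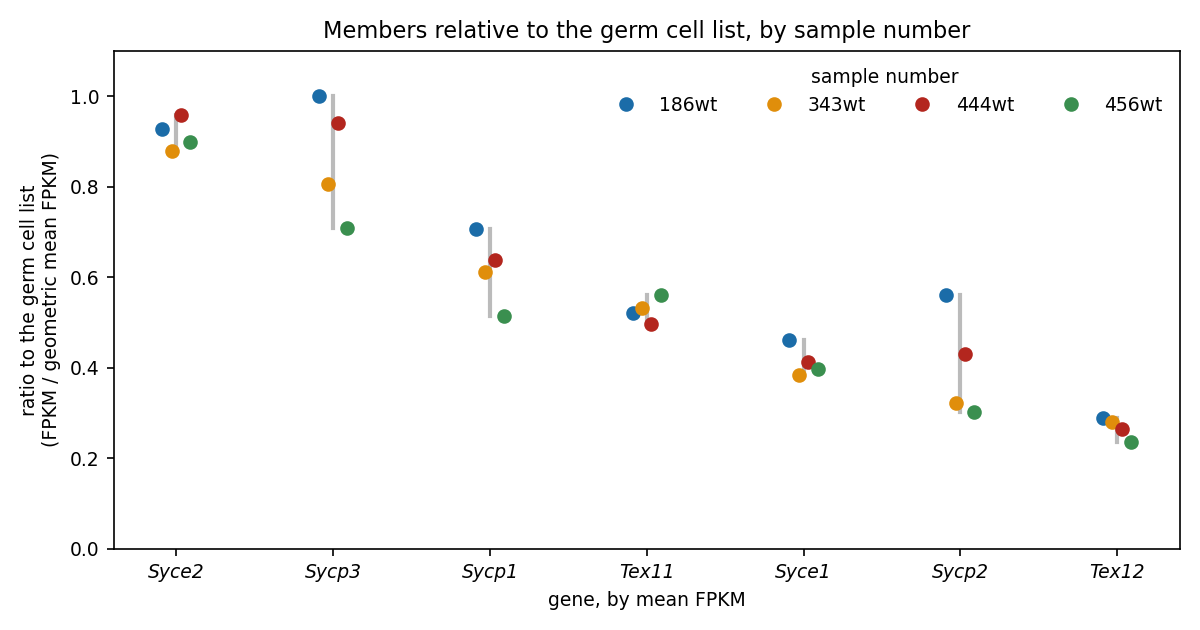
Ratio of each gene's FPKM to the geometric mean FPKM of 5 germ cell genes (vertical axis, linear) in the 4 sample numbers (points, each from 3 libraries), with a grey line from the lowest to the highest. Syce2 spans 0.878 to 0.958 and Sycp2 spans 0.303 to 0.560, with 186wt on top for 5 of 7 genes.

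When all libraries were scaled to these 5 genes, an alternative added after the data were seen, 7 of 7 members still differed by limma's F-test (64.0% of all genes). This scaling moved all genes of a sample number by -0.33 (444wt) to 0.24 (186wt) on the log2 scale. Under it 444wt was above 186wt in 0 members by limma (0 at an unadjusted p under 0.05, 1.14% of all genes) and was lower in 4 (Sycp1, Sycp2, Sycp3 and Syce1, beside 56.7% of all genes). Compared with 343wt, it was higher in 4 members (Sycp2, Sycp3, Syce1 and Syce2, beside 3.13% of all genes) and lower in 1, Tex11 (52.0% of all genes), with a log2 difference of -0.09 and an adjusted p of 0.0136 from limma. Compared with 343wt, 456wt was higher in 1 member (7.22% of all genes) and lower in 3 (8280 of 20795 genes). Compared with 456wt, 444wt was higher in 5 members (612 of 20795 genes) and lower in 1 (7881 of 20795 genes). Between 456wt and 186wt, 5 of 7 members were lower in 456wt (44.6% of all genes), with -0.88 for Sycp2, -0.50 for Sycp3, -0.45 for Sycp1, -0.29 for Tex12 and -0.22 for Syce1, and 1, Tex11, was higher by 0.10 (6.99% of all genes). Since the scaling moves every gene of a library alike, these changes of direction follow from the shift.

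Other genes of the pathway were measured as lists. These lists were chosen with earlier results of these data known, so their counts are description and no independent support. The F-test called 58.2% of all genes. How many of all genes were highest in 444wt was not counted, so the list counts of that kind cannot be set against a share. Of 5 other synaptonemal complex genes, 4 differed between the numbers by limma's F-test and 5 of 5 were highest in 444wt. Fkbp6, a chaperone-like protein of the complex, was at 187.8 ± 20.2 FPKM (SD, n = 4) and the central element gene Six6os1 at 42.9 ± 12.4. Sycp2l, a relative of Sycp2 known from oocytes, was at 0.29 ± 0.10 FPKM, with an adjusted p of 0.414 from limma. It is counted as highest in 444wt although it was not called. Of 7 axis and meiotic cohesin genes, 7 differed and 6 were highest in 444wt. The cohesin subunits Stag3 and Smc1b were at 92.9 ± 18.7 and 47.5 ± 14.2 FPKM and Rad21l at 6.70 ± 2.06. Rec8, the meiotic kleisin of cohesin, was highest in 186wt with 27.0 FPKM and at 17.6 to 19.2 in the others. Of 8 genes that act with Tex11 or after it in crossing over, 8 differed and 7 were highest in 444wt. Rnf212, a crossover factor, was at 5.48 ± 1.92 FPKM, and Msh5, a mismatch repair family member that acts in crossover formation, at 12.7 ± 4.74. Of 5 early meiosis genes, 5 differed and 5 were highest in 444wt, with Stra8 at 102.7 ± 29.3 FPKM, Dmc1, the meiotic strand-exchange protein, at 20.1 ± 7.25 and Spo11, which makes the breaks that start recombination, at 5.47 ± 1.99.

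Over the 4 lists 24 of 25 genes differed between the numbers (58.2% of all genes), and 19 did without 444wt. By limma 24 of 25 were higher in 444wt than in 343wt (30.4% of all genes). As the lists were chosen with earlier results known, the shares over all genes stand beside them for description only. Their median log2 difference for that pair was 0.72, beside 0.66 for the 7 members and 0.14 for all genes tested. All 3 libraries of 444wt were above the 9 others in 18 of 25 (11.5% of all genes). Between 456wt and 186wt 11 of 25 were lower (15.5% of all genes) and 6 were higher in 456wt (25.9% of all genes). Their median for that pair was -0.16, beside 0.08 for the members and 0.08 for all genes.

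The genes whose profile over the 4 sample numbers was most like the mean profile of the 7 members were Slc22a21, Tg, 1700013H16Rik, Btbd8 and Cit, out of 14341 genes whose mean reached 1 FPKM. Likeness was measured as the root mean square difference of log2 values after centring, which was 0.0068 for Slc22a21 and 0.0192 for Cit. The members themselves were at 0.0568 (Syce1) to 0.234 (Sycp2) and the median over all genes was 0.246. Each member is part of the mean profile, which brings its own difference down. Slc22a21 was at 10.1 FPKM in 186wt, 8.79 in 343wt, 13.8 in 444wt and 10.4 in 456wt. That it was highest in 444wt and lowest in 343wt, as 6 of the 7 members were, follows from how it was picked. With only 4 points many genes have a close profile, and over the 12 libraries none of these 5 was among the 5 most alike.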

How the data were processed

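RNA was extracted by the authors from enriched B6 germ cells at 12 dpp and sequenced as 100-bp paired-end reads. They aligned reads with BowTie 0.12.9 to the NCBIm37 transcriptome, dropped any read that had at least 2 mismatches, and ran RSEM 1.2.8 for the FPKM (fragment length 280, SD 50). The deposited FPKM were rounded to 2 decimals, with a column per library. RSEM divides reads among transcripts that fit equally well.

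Columns were assigned by name, the 3 libraries of a sample number were averaged, and mean ± SD is over 4 numbers. The members and the gene lists were chosen with earlier results of these data known. From each pathway list the 2 highest genes and the lowest by mean FPKM were named. Rec8 and the markers of pachytene or later spermatocytes were added after their values were seen. A gene that this rule covers is not reported here. Slc22a21 and the others like it are the 5 nearest profiles. The model was limma 3.58.1 under R 4.3.3 (lmFit, eBayes with trend), fitted to log2(FPKM + 0.1) of genes whose mean reached 0.1 FPKM, with calls at an adjusted p-value under 0.05. A fold on this scale understates changes of low genes. The test was checked on simulated data in which 200 of 20795 genes were changed by 1 on the log2 scale. The F-test recovered 59% of them, and 7.09% of its calls were false in this single run. That share is above the threshold of 0.05, which bounds the expected share and not that of a single run. Far fewer genes were changed in the simulation than were called in the data (58.2%), so it does not cover that case. Positions are from GENCODE M1, the annotation of NCBI build 37. Python 3.11.15, numpy 2.4.6, pandas 2.3.3 and matplotlib 3.10.9 were used for the rest. Rhox5, a Sertoli marker, had no row in the table.

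Since no counts were used, depth was estimated from the steps between low FPKM values and the lengths of 156 genes with a single transcript. The first 186wt library had a 95% interval of 14.5 to 14.8 M (mega) fragments, from the scatter of those genes alone. The alternatives were other pseudocounts, filters, scalings and variance models, each library or sample number left out, and the library suffix as a block. Scaling to the germ cell list and a promoter window of 300 bases were added after the data were seen.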

Additional observations from a re-analysis of the deposited data

Results flagged for a closer look

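In 46 values over the 4 sample numbers, 4 had 1 number far from the other 3 by Dixon's criterion, where chance flags about 1 in 20. Smc1b was at 68.7 FPKM in 444wt and at 38.9 to 43.0 in the other numbers. Rnf212 was at 8.35 FPKM in 444wt and at 4.37 to 4.69 in the others. Ccnb1ip1, a ubiquitin ligase of crossover formation, was at 9.08 FPKM in 444wt and at 5.67 to 6.15 in the others. The ratio of Syce1 to Syce2 was 0.498 in 186wt and 0.431 to 0.441 in the others. None of the 7 members stood apart by this criterion in its FPKM.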

How the results depend on the processing

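Apart from scaling to the germ cell list, 191 of 202 recomputed counts of calls equalled the reported ones. Most of these alternatives left out a single library or changed a pseudocount, filter or variance model, so little could change. Their agreement does not test whether other samples would give the same calls. The members higher in 456wt than in 343wt were 4 with median-ratio scaling and 7 without library 2 of 456wt, those lower in 456wt than in 186wt were 2 in 6 alternatives, and without 444wt 6 members and 19 listed genes differed (23 listed genes without 343wt). Scaling to the germ cell list moved all genes, and the shares over all genes are given with the tests. Under it the members higher in 444wt than in 343wt were 4 in place of 7, and those higher in 444wt than in 456wt 5 in place of 6. Those higher in 444wt than in 186wt were 0 by limma (0 also at an unadjusted p under 0.05). Those higher in 456wt than in 343wt were 1, and those higher in 456wt than in 186wt 1. Those lower in 456wt than in 343wt were 3, and those lower in 456wt than in 186wt 5. For the numbers that were highest and lowest without this scaling, the log2 difference turned negative in 2 members. It became -0.0662 for Tex11 (444wt minus 186wt) and -0.08495 for Tex12 (444wt minus 343wt). The 5 genes that set this scaling were themselves highest in 444wt. Of the 5 most similar genes, 0 were shared when the 12 libraries were used and 3 with a minimum of 10 FPKM. With 300 bases the STRA8 letters were in 3 genes. The order of the members was the same in 16 of 18 alternatives, and Sycp2 passed Syce1 without 343wt or without 456wt. With a minimum of 1 FPKM, which put the bound at 30.8 FPKM, 6 of 7 members were in the top quartile, as without 444wt or with the median of the 12 libraries.

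Libraries of different numbers with the same suffix were at most weakly alike. In 18 such pairs the correlation of their deviations ranged from -0.06 to 0.13. In 36 pairs with different suffixes it ranged from -0.13 to 0.08. With the suffix as a replicate block 7 of 7 members differed and 11774 genes were called in place of 12107. With 4 numbers and no stated preparation behind the 3 libraries, differences between numbers cannot be told apart from differences in cell enrichment or handling. The depth limits Tex12 most, at 141 to 236 fragments in a library.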
